A study of Mus musculus with 11 samples.

Results

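The genes described here encode lecticans, link proteins and tenascins, protein families found in perineuronal nets. They are the lecticans aggrecan (Acan), brevican (Bcan), neurocan (Ncan) and versican (Vcan), the link proteins Hapln1, Hapln3 and Hapln4, and the tenascins Tnr and Tnc. All are called net genes below as a short name, though not all are particular to nets. They were chosen by name. Of the 9 genes, 8 had a row in the table of 17118 genes (all but Hapln3, which was not analysed here), and 7 had enough counts to be tested. Bulk RNA from hippocampal punches of female C57/BL6 mice was sequenced in 5 AC-T and 6 saline libraries, each from 1 mouse. Mice entered treatment at 12 weeks of age and received 8 weekly intraperitoneal injections, and the libraries carry a 1-month label. The AC-T group was given doxorubicin at 2 mg/kg with cyclophosphamide at 50 mg/kg in 4 injections, then paclitaxel at 5 mg/kg in 4 injections. The controls were given 0.9% saline. The design states 6 samples in each group, and 5 AC-T libraries were analysed.

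A perineuronal net is a lattice of extracellular matrix around the cell body and proximal dendrites of certain neurons, most prominently fast-spiking parvalbumin interneurons, and in the hippocampus also CA2 pyramidal neurons. Hyaluronan forms its backbone. Lecticans, which carry chondroitin sulfate chains, bind hyaluronan at one end and tenascins at the other, and link proteins fasten the lectican to the hyaluronan. Nets form as circuits mature and are associated with limits on plasticity.

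None of the net genes passed the test of AC-T against saline. Of 7 tested, 0 were higher and 0 lower in edgeR's quasi-likelihood test at a Benjamini-Hochberg adjusted p under 0.05, where 4.89% of the 15353 genes tested were higher and 3.58% lower. Of the 7, 3 had an unadjusted p under 0.05 (Hapln1, Bcan and Tnr). In all 8.47% of genes passed at the adjusted threshold, and 24.9% had an unadjusted p under 0.05. With DESeq2 2 of the 7 passed, Bcan (adjusted p = 0.0305) and Hapln1 (adjusted p = 0.0144), where 16.7% of all genes tested passed. The AC-T and saline libraries overlapped for each of the 7, while 7.52% of all genes tested had groups that did not overlap. The median log2 fold change was 0.08 for the 7 genes and −0.00286 for all genes tested, and the median absolute log2 fold change was 0.17 against 0.11.

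Library totals ran from 23.4 to 32.1 M estimated counts (M, mega). Mouse numbers begin with 2 or 3 in saline and with 5 or 6 in AC-T, and libraries with a common first digit are called a series here. Its meaning is not given in the labels. Since every series had only 1 treatment, the part of series in a treatment difference cannot be told apart. In saline 300 the female-specific RNA Xist was listed at 0, against 13057 to 22963 in the other 10 libraries. All 10 hippocampal neuron genes looked for had values above 0, and so did genes of the thalamus, which lies below the hippocampus. Summed over 14 thalamus and habenula genes the level was 1254 to 1863 CPM (read counts on a common library scale) in saline and 629.9 to 957.98 in AC-T. Of these 14 genes 12 fell and 0 rose, where 3.58% of all genes tested were lower and 4.89% higher. The median log2 fold change was −0.98, with the lowest p for Adarb1, Amotl1 and Ntng1. The list was chosen with earlier results of these data known, so its fall is a description and not separate support. Gbx2, a defining thalamic gene, was at 0 in some libraries. In bulk tissue fewer cells of a type and less RNA per cell cannot be told apart, and the thalamic sums of the groups did not overlap. Treatment accounts for 80.4% of the variance of the thalamic list score, so a fit with that score as covariate can hardly separate them, and the part of the thalamic difference in the values below cannot be told apart from treatment.

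**Figure D1:**
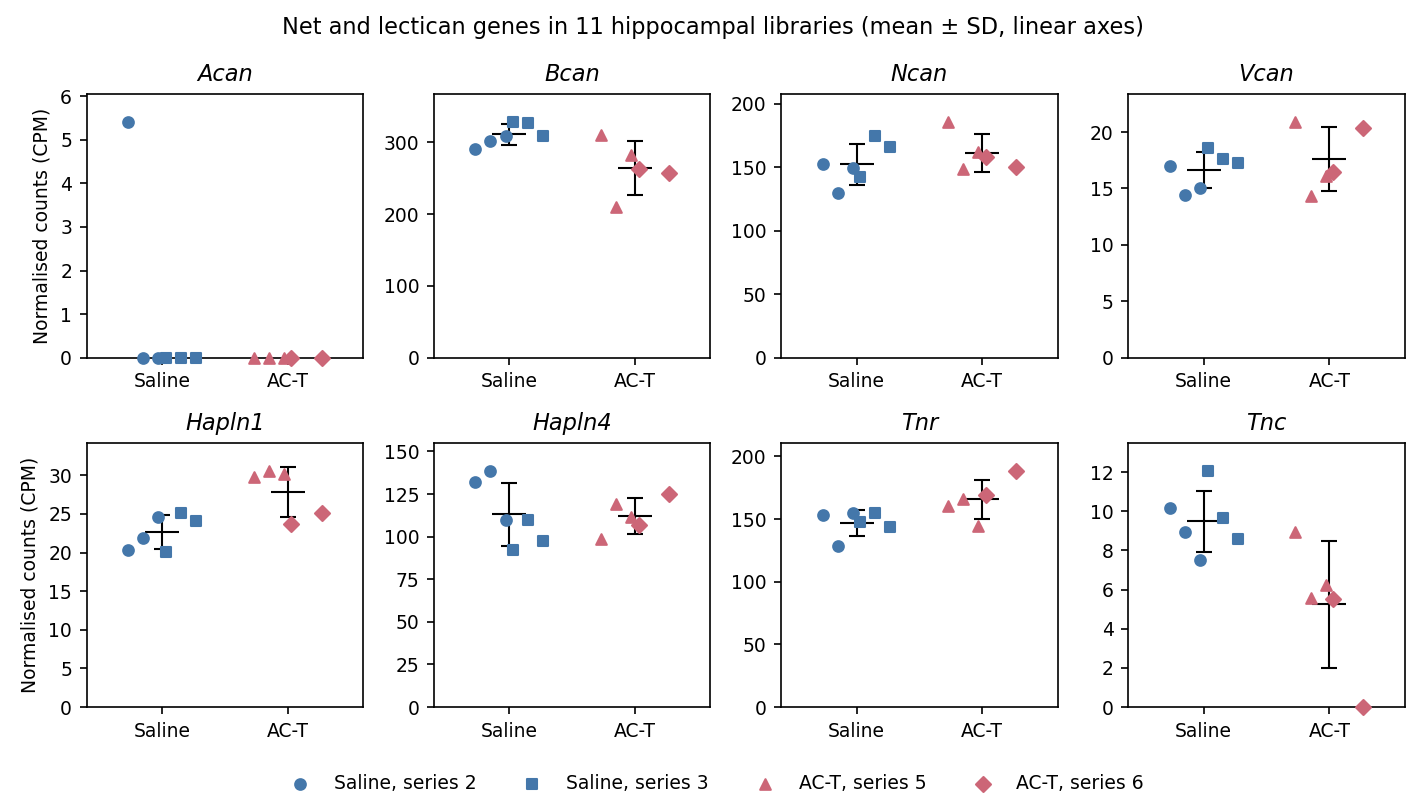
Normalised counts (CPM, linear axes from 0) of the 8 genes in each of 11 libraries, saline in blue and AC-T in red, with a marker shape for each mouse-number series and bars for the mean ± SD (no bars for Acan). Acan is above 0 only in saline 201, AC-T 502 is lowest for Bcan, the 3 AC-T libraries of series 5 lie above all saline libraries for Hapln1, and Tnc is listed at 0 in AC-T 602.

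Among the lecticans Acan, the aggrecan core protein and the usual histological marker of nets, was barely listed. It stood at 128 counts (5.41 CPM) in saline 201 and was listed at 0 in the other 5 saline and all 5 AC-T libraries. Low values appear to have been dropped: of 2828 genes at 0 in some libraries only, 1543 reached 20 counts or more wherever they were above 0. A listed 0 is therefore read as below a limit and not as absence. The single Acan value corresponds to 0.736 CPM per kilobase of its longest annotated transcript, and the lowest listed value of such genes was 0.527 at the median and 0.841 at the 95th percentile. No fold change is given for Acan.

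Bcan encodes brevican, a lectican made by glia and neurons. Saline libraries 201, 202, 203, 300, 301 and 302 stood at 291, 302, 309, 328, 327 and 309 CPM. AC-T libraries 501, 502, 503, 600 and 602 stood at 310.5, 209, 282, 262 and 257 CPM. All 5 AC-T libraries were below the saline mean and 4 of them below every saline library, while AC-T 501 lay within the saline range. The means were 264 ± 37.2 CPM after AC-T (SD, n = 5) and 311 ± 14.5 CPM after saline (SD, n = 6). The difference was −0.23 ± 0.08 on the log2 scale (SE; 95% interval −0.42 to −0.05), with adjusted p = 0.105. The SD was 14.1% of the mean after AC-T and 4.66% after saline, and AC-T 502 was lowest. Without AC-T 502 the log2 fold change was −0.16 (adjusted p = 0.165). Without AC-T 501 it was −0.30 and passed (adjusted p = 0.0453). With the thalamic list score as covariate it was −0.05 ± 0.18, an SE 2.17 times as large.

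Astrocyte genes moved the same way in part. Of 12 astrocyte genes 3 fell and 0 rose (median −0.19), while their summed level was 4427 to 6139 CPM in AC-T and 4695 to 5815 in saline, with no member of the list at 0. Agt, angiotensinogen, fell to 41.3 ± 6.91 CPM (SD, n = 5) from 79.7 ± 13.8 (SD, n = 6), with adjusted p = 0.00361, and Slc4a4, a bicarbonate transporter, and Aqp4, the astrocytic water channel, fell by 0.42 and 0.46 on the log2 scale (adjusted p = 0.0121 and 0.0356). The Agt and Slc4a4 calls held on omission of each of the 11 libraries, and the Slc4a4 call ended without series 3 or series 6. The Aqp4 call held on omission of 4 of the 11 libraries. It ended with series as a random effect and without series 2, series 3 or series 6. Of the 12 genes 2 had a positive log2 fold change, Slc1a2 (0.13, adjusted p = 0.518) and Slc1a3 (0.07, adjusted p = 0.756). The part of the astrocyte genes in the Bcan values was not tested.

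Ncan, neurocan, a lectican of the developing and adult brain, showed overlapping groups. Saline libraries in the same order stood at 152, 130, 149, 142, 174 and 166 CPM, and AC-T libraries at 186, 149, 162, 158 and 151 CPM. Only AC-T 501 exceeded the highest saline library. The difference was 0.08 ± 0.08 on the log2 scale (SE; 95% interval −0.09 to 0.26), with adjusted p = 0.587.

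Vcan, versican, whose brain isoforms come from oligodendrocyte-lineage cells and occur at nodes of Ranvier, ranged from 14.4 to 18.6 CPM in saline (median 17.1) and from 14.3 to 20.9 in AC-T (median 16.5). AC-T values lay on both sides of the saline range, 2 above and 1 below. The difference was 0.08 ± 0.10 on the log2 scale (SE; 95% interval −0.15 to 0.31), with adjusted p = 0.684. Of 9 oligodendrocyte precursor genes 1 fell (Lhfpl3, by 0.46 on the log2 scale, adjusted p = 0.0117) and 0 rose, and of 10 myelin genes 0 passed in edgeR, with summed levels of 8828 to 14187 CPM in AC-T and 11198 to 15845 in saline.

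Hapln1, the link protein that stabilises aggrecan on hyaluronan and whose loss weakens nets, had the smallest p of the net genes. Saline libraries stood at 20.4, 21.9, 24.6, 20.1, 25.2 and 24.1 CPM, and AC-T libraries 501, 502, 503, 600 and 602 at 29.8, 30.6, 30.1, 23.6 and 25.1 CPM. The 3 libraries of series 5 were above every saline library, and the 2 of series 6 lay within the saline range. The means were 27.8 ± 3.22 CPM after AC-T (SD, n = 5) and 22.7 ± 2.21 CPM after saline (SD, n = 6). The difference was 0.29 ± 0.09 on the log2 scale (SE; 95% interval 0.10 to 0.48), with adjusted p = 0.0592.

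Hapln1 also differed in level between the AC-T series. Within AC-T, series 6 minus series 5 was −0.31 ± 0.10 (SE) on the log2 scale (adjusted p = 0.249; unadjusted p = 0.0122 in edgeR's model with 4 series means), about the size of the treatment difference. Without series 6 the log2 fold change was 0.41 and passed (adjusted p = 0.0345), and without series 5 it was 0.09 (adjusted p = 0.692). Without AC-T 600 alone it passed (adjusted p = 0.0389). Between the saline series it was 0.05 ± 0.09.

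Hapln4, a link protein enriched at perisomatic inhibitory synapses and in nets of the brainstem, had a treatment difference near 0. Saline libraries stood at 132, 139, 110, 92.2, 109.6 and 97.3 CPM, and AC-T libraries at 98.3, 119, 111, 107 and 125 CPM. All AC-T libraries fell within the saline range. The difference was −0.01 ± 0.11 on the log2 scale (SE; 95% interval −0.25 to 0.22), with adjusted p = 0.959. Its saline series stood apart: series 2 had 109.99 to 139 CPM and series 3 had 92.2 to 109.6, a log2 difference of −0.35 ± 0.11 for series 3 minus 2 (SE; unadjusted p = 0.0108; adjusted p = 0.132). The thalamic sum was also higher in saline series 2, where it was 1570 to 1863 CPM, than in series 3, where it was 1254 to 1341. Between the saline series 0 of the 7 net genes passed in edgeR and 1 had an unadjusted p under 0.05, where 1.03% and 20.1% of all genes did. Between the AC-T series the numbers were 0 and 1, where 0.117% and 13.5% of all genes did.

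Tnr, tenascin-R, an oligodendrocyte and interneuron product that cross-links lecticans in nets, had 4 of its 5 AC-T libraries above every saline library. Saline libraries stood at 153, 128, 155, 148, 155 and 143 CPM, and AC-T libraries at 160, 166, 145, 169 and 188 CPM. AC-T 503, the exception, lay below the saline mean. The means were 166 ± 15.8 CPM after AC-T (SD, n = 5) and 147 ± 10.3 CPM after saline (SD, n = 6). The difference was 0.17 ± 0.07 on the log2 scale (SE; 95% interval 0.02 to 0.32), with adjusted p = 0.146. It was nearest to 0 without AC-T 602 among the omissions of 1 library, at 0.12 (adjusted p = 0.307), and 0.09 without series 6.

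Tnc, tenascin-C, an astrocyte and progenitor glycoprotein that is scarce in the adult hippocampus, had values near the limit of the table. Saline libraries stood at 10.2, 8.95, 7.52, 12.1, 9.64 and 8.56 CPM. AC-T libraries 501, 502, 503 and 600 stood at 8.93, 5.57, 6.22 and 5.53 CPM, and AC-T 602 was listed at 0. Of the 4 AC-T libraries with a value, 3 were below every saline library and AC-T 501 lay within the saline range. The fit takes the listed 0 as a count and gave a difference of −0.86 ± 0.58 on the log2 scale (SE; 95% interval −2.13 to 0.41), with adjusted p = 0.403. Without AC-T 602 it was −0.53 ± 0.16 (SE), with adjusted p = 0.0896. It was −2.55 ± 1.15 with limma-voom (adjusted p = 0.182), −2.82 ± 1.36 with series as a random effect (adjusted p = 0.301) and −1.79 ± 0.91 without series 5 (adjusted p = 0.328), so the size of the Tnc difference is not settled by these fits.

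**Figure D2:**
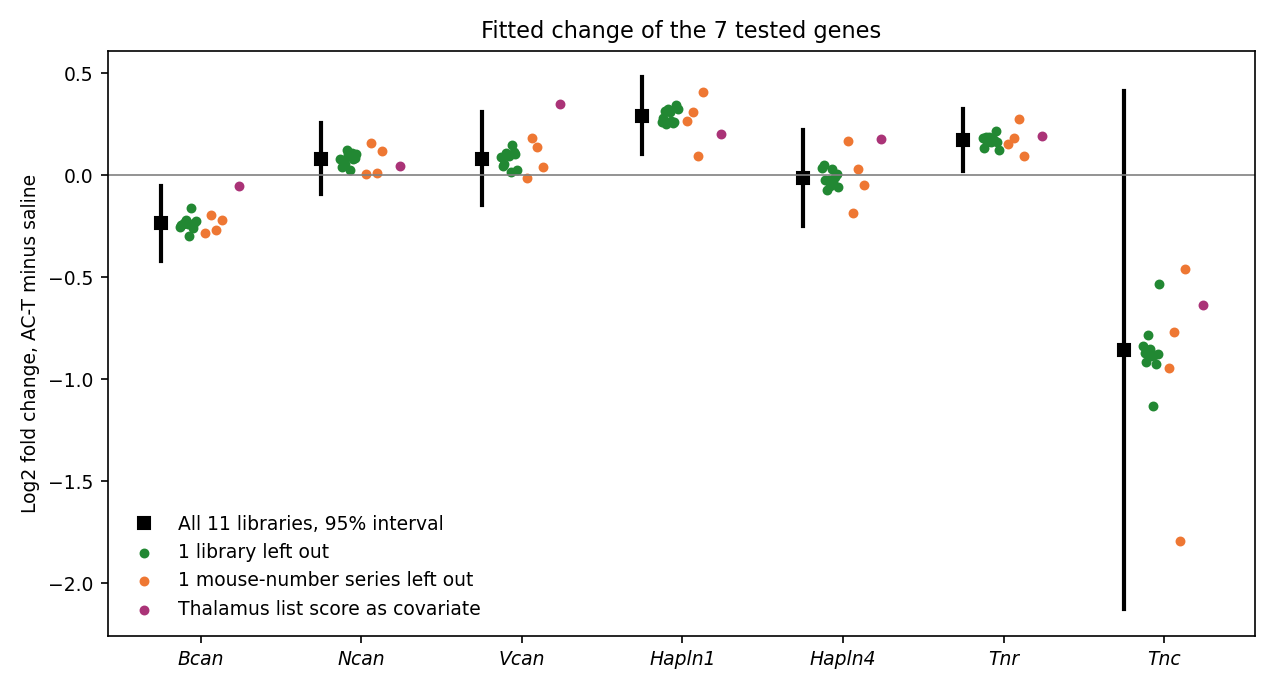
Log2 fold change (AC-T minus saline) of the 7 tested genes, with the value and 95% interval over all 11 libraries in black, values with 1 library left out in green, with 1 mouse-number series left out in orange and with the thalamic list score as covariate in purple. The intervals of Bcan, Hapln1 and Tnr do not reach 0 before adjustment over all genes, Hapln1 drops to 0.09 without series 5, and Tnc has the widest interval, −2.13 to 0.41.

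Levels were compared between genes only per kilobase of the longest annotated transcript. Over the 11 libraries Bcan was highest at 92.2 ± 11.3 CPM per kilobase (SD, n = 11). Hapln4 followed at 30.9 ± 4.02, Ncan at 21.7 ± 2.13 and Tnr at 12.7 ± 1.29 CPM per kilobase. Hapln1 stood at 4.38 ± 0.648, Vcan at 1.38 ± 0.176 and Tnc at 1.06 ± 0.452 CPM per kilobase. The ranges of neighbours in this order overlapped for Hapln4 and Ncan (25.3 to 37.97 and 18.1 to 25.8) and for Vcan and Tnc (1.15 to 1.68 and 0 to 1.70), and not for the other pairs of neighbours. With the median length of each gene's annotated transcripts Tnr moved ahead of Ncan, at 186 against 21.7 CPM per kilobase. Bcan and Hapln4 then stood at 284 and 224 CPM per kilobase, with overlapping ranges. By that length the ranges of Hapln4 and Tnr and those of Hapln1 and Vcan overlapped too.

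The make-up of the lectican level was described by library. Brevican made up 79.9%, 83.3%, 81.7%, 83.1%, 80.2% and 80.1% of the summed level per kilobase of the 4 lecticans in saline libraries 201 to 302. In AC-T libraries 501 to 602 it made up 78.2%, 75.3%, 79.0%, 78.2% and 78.4%. The groups did not overlap, with means of 77.8 ± 1.45% (SD, n = 5) and 81.4 ± 1.54% (SD, n = 6). Neurocan took 19.8% to 23.4% in AC-T and 15.7% to 18.7% in saline, and versican 1.14% to 1.57% against 1.004% to 1.19%. Brevican and neurocan make up nearly all of the sum, so the neurocan shares mirror the brevican shares. Their lack of overlap is therefore no separate result. These shares are a description with no test, and Acan enters them as listed. How often such shares do not overlap for other genes was not determined. The absolute shares depend on the length: by median length the Bcan means were 89.5 ± 0.723% and 91.4 ± 0.733%.

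**Figure D3:**
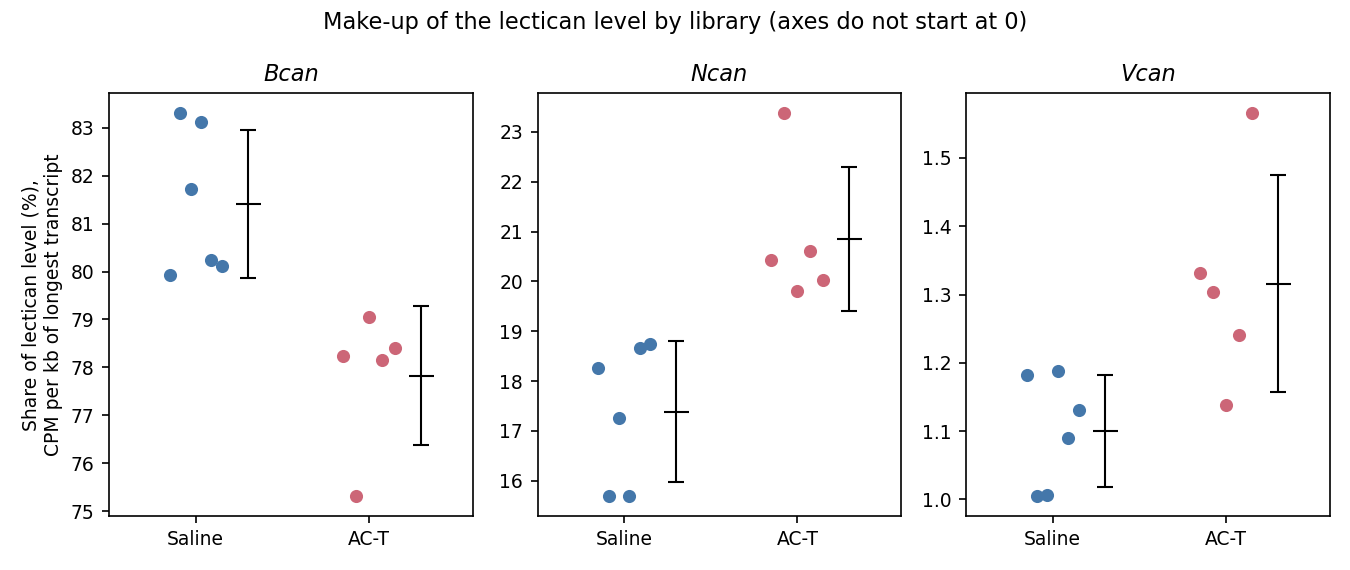
Share of Bcan, Ncan and Vcan in the summed lectican level of each library (percent of CPM per kilobase of the longest transcript; axes do not start at 0), with the mean ± SD beside the points. AC-T libraries lie below all saline libraries for Bcan and above all of them for Ncan, whose share nearly mirrors that of Bcan, and the groups overlap for Vcan.

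Among the link proteins Hapln1 made up 13.7 ± 1.92% of the Hapln1 and Hapln4 level in AC-T (SD, n = 5; range 11.3% to 16.2%) and 11.6 ± 1.97% in saline (SD, n = 6; range 8.98% to 13.6%), so the groups overlapped. Tnc made up 7.70% to 12.3% of the tenascin level in saline and 0% to 8.73% in AC-T, where the 0% is the listed 0 of AC-T 602. These shares depend strongly on the length. By median length the Hapln1 means were 3.91 ± 0.608% in AC-T and 3.23 ± 0.599% in saline. The Tnc means were then 0.394 ± 0.247% in AC-T and 0.771 ± 0.129% in saline (SD). Hapln2, the link protein of nodes of Ranvier, stood at 49.3 ± 13.6 CPM in AC-T and 55.4 ± 2.75 in saline (SD, n = 5 and 6; adjusted p = 0.563). Its AC-T libraries ran from 29.3 CPM in AC-T 502 to 63.3 in AC-T 602, wider than the saline range of 51.3 to 58.4.

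Genes that build, sulfate, bind and cut the net matrix were grouped in 6 lists. Of their 62 tested genes 2 were higher and 7 lower, 14.5% in all beside 8.47% of all genes tested, with a median log2 fold change of −0.07. All 13 lists, those of cell types included, were chosen with earlier results of these data known. Their shares are therefore a description and not separate support. With series as a random effect in limma-voom 1 of the 62 passed (Xylt2), 1.61% beside 1.91% of all genes. It was 2 of 62 without series 2, without series 5 and without series 6 (3.23% each, beside 3.54%, 1.99% and 2.63% of all genes), and 4 without AC-T 502 (6.45% beside 4.03%).

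Hyaluronan genes gave 0 higher and 1 lower of 6 tested (median −0.21). Hyal2, a hyaluronidase, fell to 10.3 ± 0.512 CPM (SD, n = 5) from 11.6 ± 0.174 (SD, n = 6), with adjusted p = 0.0353, and its call held on omission of only 1 of the 11 libraries and ended without any 1 series. Tmem2, a cell-surface hyaluronidase, differed by −0.29 ± 0.08 in log2 (SE), with adjusted p = 0.0527, and Cemip, a hyaluronan-degrading factor, −0.13 ± 0.08 (adjusted p = 0.369). The hyaluronan synthases Has1, Has2 and Has3 were not analysed here.

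Of 12 genes for synthesis of the chondroitin chain 0 were higher and 1 lower (median −0.02). Xylt2, a xylosyltransferase that starts the chain on the core protein, stood at 45.7, 41.2, 35.9, 29.4, 32.2 and 31.1 CPM in saline and at 25.6, 24.9, 24.3, 23.9 and 25.5 CPM in AC-T. It fell by 0.53 ± 0.11 on the log2 scale (SE), without overlap, with adjusted p = 0.0140. The call held on omission of each of the 11 libraries and ended without series 5 or series 6. Chsy3, a chondroitin synthase, had a log2 fold change of 0.40 ± 0.17 (adjusted p = 0.159), and Chpf2, a chondroitin polymerising factor, −0.10 ± 0.05 (adjusted p = 0.233).

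Of 9 genes that modify chondroitin and dermatan sulfate 1 was higher and 0 lower (median 0.05). Ust, a uronyl 2-sulfotransferase, rose to 54.8 ± 5.55 CPM (SD, n = 5) from 44.8 ± 2.13 (SD, n = 6), by 0.29 ± 0.06 in log2, with adjusted p = 0.0184. Its AC-T libraries, 49.6 to 64.0 CPM, were all above its saline libraries, 41.7 to 47.9. Its call held on omission of each of the 11 libraries and ended with series as a random effect and without series 2 or series 6. Chst15, which makes the disulfated chondroitin sulfate E, stood at 0.23 ± 0.09 (adjusted p = 0.121) and the epimerase-like gene Dsel at 0.12 ± 0.08 (adjusted p = 0.382).

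Of 14 receptors and net-binding factors 1 was higher and 1 lower (median −0.00245). Nrp1, the neuropilin receptor of semaphorin 3A, rose to 75.7 ± 7.35 CPM (SD, n = 5) from 61.6 ± 4.69 (SD, n = 6), with adjusted p = 0.0271. Mdk, midkine, a growth factor that binds chondroitin sulfate, fell to 14.9 ± 1.50 CPM from 19.9 ± 2.59 (adjusted p = 0.0221). Both calls held on omission of 8 of the 11 libraries, one at a time. The Nrp1 call ended without series 2 or series 5, and the Mdk call without any 1 series. Rtn4r, the Nogo receptor, had groups without overlap and a log2 fold change of 0.15 ± 0.05 (adjusted p = 0.0653).

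Of 10 proteases and inhibitors 0 were higher and 2 lower (median −0.17). Mmp14, a membrane-bound metalloproteinase, fell to 13.8 ± 1.66 CPM (SD, n = 5) from 18.7 ± 1.51 (SD, n = 6), with adjusted p = 0.0124. Its call held on omission of each of the 11 libraries and ended with series as a random effect and without series 2 or series 5. Adamts15, a protease that cleaves lecticans, stood at 17.0, 15.1, 14.9, 7.77, 10.4 and 8.81 CPM in saline and at 6.40, 6.02, 7.72, 4.97 and 6.26 CPM in AC-T. It fell by 0.97 ± 0.21 on the log2 scale (SE), with adjusted p = 0.0182 and 0.0504 without AC-T 502, and saline series 2 was higher than series 3 without overlap. The call ended without series 2, series 5 or series 6. Timp3, a tissue inhibitor of metalloproteinases, had a log2 fold change of −0.25 ± 0.09 (adjusted p = 0.0971).

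Of 11 other proteoglycans, tenascins and link proteins 0 were higher and 2 lower (median −0.10). Sdc3, the neuronal syndecan, fell by 0.19 ± 0.05 in log2 (SE), with adjusted p = 0.0375, and its call held on omission of 3 of the 11 libraries. Spock3, a testican, fell by 0.23 ± 0.06 in log2 (SE), with adjusted p = 0.0480, and its call ended on omission of any 1 library. Gpc5, a glypican, stood at −0.18 ± 0.12 (adjusted p = 0.382).

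Genes of the neurons that carry nets were examined beside these. Of 10 fast-spiking interneuron genes 0 were higher and 2 lower (median −0.18). Pvalb, parvalbumin, fell to 48.7 ± 6.66 CPM (SD, n = 5) from 76.3 ± 21.1 (SD, n = 6), with adjusted p = 0.0391, and 0.103 without AC-T 502. The Pvalb call held on omission of 5 of the 11 libraries and ended without series 2, series 5 or series 6. Kcnc2, a potassium channel of fast-spiking cells, stood at −0.38 ± 0.12 (adjusted p = 0.0669). Of the 10 genes, 5 had a positive log2 fold change. Among them were Erbb4 at 0.33 ± 0.10 (adjusted p = 0.0680) and Kcns3 at 0.28 ± 0.10 (adjusted p = 0.0958). The list sum was 970.4 to 1223 CPM in AC-T and 1014 to 1502 in saline. Of 8 CA2 genes 0 were higher and 2 lower (median −0.30). Cacng5, an AMPA receptor auxiliary subunit, fell by 0.78 ± 0.13 (adjusted p = 0.00555) and Pcp4, a calmodulin regulator, by 0.84 ± 0.19 (adjusted p = 0.0217, and 0.0605 without AC-T 502), while Rgs14, the best known CA2 marker of the list, stood at 0.62 ± 0.23 (adjusted p = 0.121). The CA2 sum was 371 to 446 CPM in AC-T and 506 to 741 in saline, with Map3k15 at 0 in some libraries. Pcp4 made up most of that sum, with means of 215 of 411 CPM in AC-T and 383 of 577 in saline. The mean of the rest of the sum was about the same in both groups. For saline series 3 minus 2 Pcp4 differed by −0.67 ± 0.17 in log2 (SE). The Pcp4 call ended without series 2, series 5 or series 6, and the Cacng5 call without series 2 or series 5. Of the 10 hippocampal neuron genes 1 was higher (Neurod6, a transcription factor of pyramidal neurons, by 0.72 ± 0.15; adjusted p = 0.0150) and 0 lower, with sums of 693 to 924 CPM in AC-T and 596 to 892 in saline. With series as a random effect 0 of the fast-spiking, 1 of the CA2 and 0 of the hippocampal neuron genes passed. In saline the thalamic and fast-spiking sums were both higher in libraries 201, 202 and 203 than in 300, 301 and 302. The thalamic sums were 1570 to 1863 CPM against 1254 to 1341, and the fast-spiking sums 1287 to 1502 against 1014 to 1173. In AC-T libraries 501, 502, 503, 600 and 602 the thalamic sums were 957.98, 629.9, 719, 696 and 856 CPM. Their fast-spiking sums were 970.4, 1111, 1101, 1049 and 1223 CPM, so AC-T 501 had the highest thalamic and the lowest fast-spiking sum. The part of thalamic tissue in the fast-spiking values was not tested. With the thalamic list score as covariate 0 of the 133 list genes passed in edgeR and 1 of all genes did, in a fit where the SEs of the 7 net genes were 2.09 to 2.38 times as large, so this loss of calls says nothing on its own about the source of the differences.

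**Figure D4:**
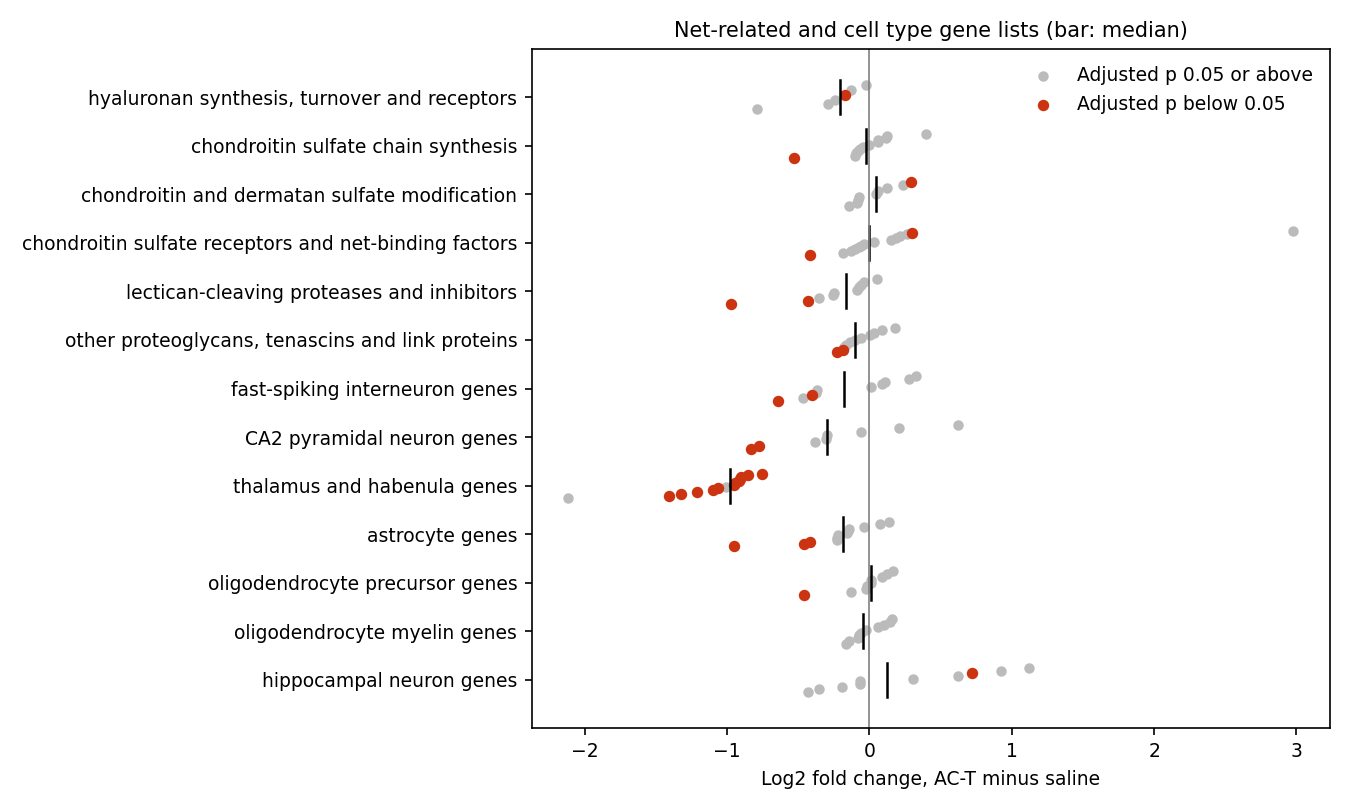
Log2 fold change (AC-T minus saline) of each tested gene in 13 lists, red where the adjusted p is below 0.05 and grey otherwise, with a bar at the list median. Thalamus and habenula genes lie lowest, with a median of −0.98, and the 6 net-related lists have medians between −0.21 and 0.05.

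The genes with profiles most like those of Hapln1, Bcan and Tnr over the 11 libraries were found by the mean absolute difference of centred log2 CPM among 12559 genes. For Hapln1 they were Psd3, Celf4 and Rgs19, at 0.0583, 0.0585 and 0.0635 on the log2 scale, where the median over all candidates was 0.195. For Bcan they were Amt, Nxpe4 and Tsc22d4, at 0.0495, 0.0498 and 0.0522 (median 0.181). For Tnr they were Sertad2, Gtf3c1 and Tbc1d5, at 0.0448, 0.0463 and 0.0480 (median 0.148).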

How the data were processed

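Base calls were converted with Dragen 4.3.6, reads checked with FastQC 0.11.9 and genes quantified with Salmon 1.9.0 on build GRCm39, per the submitters' processing notes and the series design. The annotation and any filter on low values are not given in the sources used here. The deposited values are expected counts (estimated counts per gene, 13.7% to 14.7% of them with a fraction), 1 column per mouse, and were rounded. Salmon divides reads shared by similar genes.

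The 11 libraries were fitted in R 4.3.3 with the 2-sided quasi-likelihood test of edgeR 4.0.16, after TMM scaling and a filter (filterByExpr, minimum count 10). P values were adjusted by Benjamini-Hochberg over 15353 genes, threshold 0.05. CPM uses TMM-scaled library sizes. SE is the log2 fold change divided by the root of F, and 95% intervals use the moderated degrees of freedom, unadjusted. Transcript lengths came from GENCODE for GRCm38, an older build, so no coordinates are given. The model was tested on simulated data. All 9 net genes are named, with the 3 smallest p of each list, Hapln2, Pvalb and, for 3 net genes, the 3 most similar genes whose mean log2 CPM was 1 or more; not every gene so taken is described, and 1 result is not reported here. The 13 lists hold 146 genes, 133 of them tested. Members and lists were chosen with earlier results of these data known. P values measure the spread between these mice, taken as independent, although libraries of a series were correlated (0.215 in limma-voom). Alternatives used DESeq2 1.42.0, limma-voom (limma 3.58.1), other scalings and filters, covariates and omissions.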

Additional observations from a re-analysis of the deposited data

Results flagged for a closer look

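By Dixon's test 1 library stood far from the others of its group in 5 of 95 sets of values, each a gene in a treatment group, and chance flags about 1 in 20 groups. Acan stood at 5.41 CPM in saline 201 and was listed at 0 in the other saline libraries. Sema3a stood at 4.71 CPM in saline 202 and was listed at 0 in the other saline libraries. Hyal2 stood at 11.9 CPM in saline 300, above 11.4 to 11.5 CPM in the other saline libraries. Spock3 stood at 176 CPM in saline 201, above 140.5 to 153 CPM in the other saline libraries, and at 115 CPM in AC-T 502, below 131 to 137 CPM in the other AC-T libraries.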

How the results depend on the processing

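No paired analysis was possible because the mouse numbers of the groups do not coincide. The 7 net genes kept their direction and their side of the threshold in edgeR under the other scalings, filters, robust fit and unrounded counts, and with limma-voom, where Tnc moved from −0.86 to −2.55 (−2.82 with series as a random effect, −1.79 without series 5). The count of net genes passing was 2 with DESeq2, 1 at a threshold of 0.1 and 1 without series 6, beside 16.7%, 14.9% and 2.63% of all genes. It was 0 to 1 on omission of 1 library. Hapln1 passed with DESeq2 (log2 fold change 0.28), without series 6 (0.41), at the threshold of 0.1 (0.29) and without AC-T 600, with a range of 0.25 to 0.34 on omission of 1 library. Bcan passed with DESeq2 (−0.24) and without AC-T 501, with a range of −0.30 to −0.16. Hapln4 changed sign, to 0.18 with the thalamic covariate, 0.17 without series 2 and 0.0287 without series 5, and ranged from −0.0741 (without saline 300) to 0.0526 on omission of 1 library. It was 0.0344 without saline 201, 0.0526 without saline 202, 0.0309 without AC-T 501 and 0.00413 without AC-T 600. Vcan was −0.0138 without series 2. Between the AC-T series 0 to 1 net genes passed on omission of 1 library, the 1 being without AC-T 600.

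All genes passing numbered 1301, with 2295 at a threshold of 0.1, 2566 with DESeq2, 293 with series as a random effect, 1 with the thalamic covariate, 549, 317 and 409 without series 2, 5 and 6, and 625 to 1229 on omission of 1 library (AC-T 502 gave 625, AC-T 602 gave 681, saline 202 gave 815 and saline 300 gave 832). List genes passing numbered 30, with 15 with series as a random effect, 0 with the thalamic covariate, which is nearly collinear with treatment, and 12, 10 and 11 without series 2, 5 and 6. The causes were not tested beyond these settings. Higher against lower calls were 751 and 550, 593 and 663 with upper-quartile factors, and 487 and 548 with library totals. Without saline 300, the library with Xist at 0, 0 of 7 net genes passed in edgeR. Listed zeros limit Acan, Tnc and Sema3a, and did not follow library totals: Acan was above 0 only in the library with the smallest total (saline 201, 23.4 M), and Tnc was at 0 in AC-T 602 (31.7 M).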

Other observations

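Sema3a, a secreted guidance protein that binds chondroitin sulfate in nets and signals through Nrp1, was chosen after its values were seen. It was listed at 0 in 5 of 6 saline libraries and at 4.71 CPM in saline 202. In AC-T libraries 501, 502, 503, 600 and 602 it stood at 6.58, 4.84, 5.72, 6.52 and 6.98 CPM, all above saline 202. Its lowest listed value, 0.794 CPM per kilobase of its longest transcript, is near the limit of the table, so no fold change is given (adjusted p = 0.189, in a fit that takes listed zeros as counts). Cd44, a hyaluronan receptor also chosen after its values were seen, was listed at 0 in 2 saline and 3 AC-T libraries.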
